A study of Mus musculus with 20 samples.

Results

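The mitochondrial carrier family, Slc25, moves metabolites across the inner mitochondrial membrane. Its members share a fold of repeated transmembrane modules, and each exchanges or imports a small set of solutes such as organic acids, acylcarnitines, amino acids, nucleotides, cofactors or iron. Heart muscle relies on them to bring fuel and cofactors to its many mitochondria. The genes described here are all those of the deposited table whose symbol is Slc25a with a number, apart from the phosphate carrier Slc25a3, the adenine nucleotide exchangers Slc25a4 and Slc25a5, the oxoglutarate carrier Slc25a11, the aspartate-glutamate carriers Slc25a12 and Slc25a13, and Slc25a44. This rule, which used names and no measured value, found 37 carriers among 25851 genes. The 1 carrier pseudogene in the table was left out.

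The RNA came from hearts of 20 male mice, 14 to 16 weeks old, with 5 separate animals in each of 4 groups. KO_Sed mice carried the label of a PGC-1α knockout in cardiomyocytes and were kept sedentary, and WT_Sed mice were sedentary wild types. KO_Ex mice had the same knockout label and WT_Ex mice were wild types, and both had run voluntarily on a wheel for 6 weeks as endurance training. PGC-1α, encoded by Ppargc1a, is a transcriptional coactivator of mitochondrial biogenesis. The Cre driver and the deleted exons are not given in the sources used here, and a heart also holds cells that the deletion was not aimed at. Ppargc1a was 18.2 to 27.9 FPKM in KO_Sed and 9.39 to 15.4 FPKM in WT_Sed hearts, and 18.7 to 26.9 FPKM in KO_Ex and 10.4 to 21.9 FPKM in WT_Ex hearts. The targeted gene was thus not lower in the libraries labelled knockout. A value summed over all exons does not check a deletion of some of them, and the direction of each genotype comparison rests on the labels.

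Values are FPKM, reads scaled for transcript length and library depth, as deposited, from libraries of 14.16 to 30.43 M recovered reads. All 10 cardiomyocyte markers were found in every group. Myl7, an atrial myosin light chain, was above 1000 FPKM in 4 libraries (WT_Ex replicates 4 and 5, KO_Ex replicates 2 and 5) and at most 97.1 FPKM in the rest, and summed markers of fat cells were also highest in these, from 27.6 to 300.1 FPKM against at most 22.7 FPKM elsewhere. Summed over 8 atrial markers, KO_Ex replicates 1, 3 and 4 had 1491, 1578 and 2723 FPKM, against 53.9, 28.6 and 82.3 FPKM in WT_Ex replicates 1, 2 and 3. The sums were 273.7 to 909.9 FPKM in KO_Sed and 45.4 to 266 FPKM in WT_Sed hearts. Without the Myl7-high libraries 2 of these 8 markers rose and 1 fell between trained groups. Leaving those libraries out thus did not make the groups alike in this sum, and its part was not tested. The clock gene Arntl was above 2 FPKM in 5 libraries (WT_Sed replicates 1, 2, 3 and 4 and KO_Sed replicate 1) and at most 1.16 FPKM in the others. Carrier calls that ended without either set of libraries, or with log2 Arntl as a covariate, are named with those values. Leaving out the Arntl-high set kept 1 WT_Sed heart. Comparisons with WT_Sed hearts, and the interaction, could therefore detect little in that fit for any gene. A call that ended there is not a result about Arntl. In RNA from whole tissue, fewer cells of a type and less RNA per cell cannot be told apart.

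The carriers spanned a wide range of levels. On the FPKM scale, which is per length, the highest mean over the 20 hearts was 64.9 FPKM for Slc25a34, an orphan carrier related to the yeast oxaloacetate carrier. It was followed by Slc25a39, a carrier needed for mitochondrial glutathione import, at 39.7 FPKM and by Slc25a20, the carnitine-acylcarnitine translocase that brings fatty acids to oxidation, at 35.6 FPKM. Next came the iron importer Slc25a28 (mitoferrin-2) at 19.2 FPKM, the NAD+ carrier Slc25a51 at 15.8 FPKM, the coenzyme A carrier Slc25a42 at 15.4 FPKM, the outer membrane protein Slc25a46 at 13.2 FPKM, the pyrimidine nucleotide carrier Slc25a33 at 12.6 FPKM and the calcium-regulated ATP-Mg/phosphate carrier Slc25a23 at 10.9 FPKM. Each carrier in this order overlapped the next in its range over hearts. These 9 carriers averaged at least 10 FPKM.

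In 31 carriers the mean was at least 0.5 FPKM, the minimum for testing, and the lowest of these, Slc25a40, a relative of Slc25a39, averaged 1.04 FPKM. The other 6 were not tested. They were the ornithine carrier isoform Slc25a2, the glutamate carrier Slc25a18, the oxodicarboxylate carrier Slc25a21, the testis-type adenine nucleotide exchanger Slc25a31, and Slc25a43 and Slc25a53, whose substrates are not settled. The highest mean among them was 0.265 FPKM, and none of the 6 had more than 52 recovered reads in a library. Fitted with no minimum, they gave 0 calls by limma over 5 comparisons, with 3 at an unadjusted p below 0.05 and a smallest adjusted p of 0.186.

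**Figure D1:**
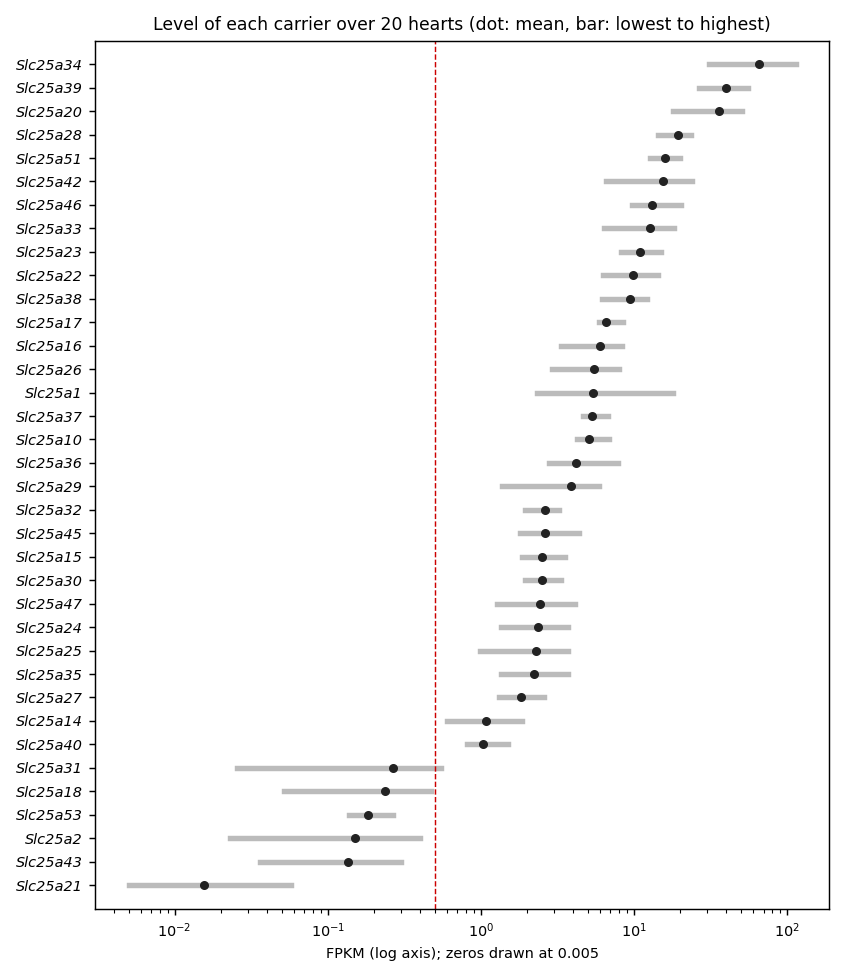
FPKM of 36 carriers on a log axis, with a dot for the mean and a bar from the lowest to the highest of 20 hearts; a dashed line marks the 0.5 FPKM minimum. Slc25a34 leads with a mean of 64.9 FPKM, and 6 carriers lie below the line.

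In sedentary mice, the question was which carriers differ with the knockout label before training. Slc25a29, Slc25a42, Slc25a26, Slc25a39, Slc25a15 and Slc25a34 fell in KO_Sed hearts, by 0.43 to 0.57 on the log2 scale, and the ATP-Mg/phosphate carrier Slc25a25 rose by 0.68 ± 0.18 (SE). Log2 fold changes are on the log2(FPKM + 0.5) scale, which understates changes of low genes, and a call is an adjusted p below 0.05 from limma over 13723 genes. Of the 31 tested carriers 1 rose and 6 fell (3.23 and 19.4%), where 6.96% of all genes tested rose and 6.32% fell. The median log2 fold change was -0.16 over the carriers and -0.01 over all genes tested. Scaling each library to a common total, as TPM, left 1 higher and 3 lower, with adjusted p of 0.0609 for Slc25a26, 0.054 for Slc25a29 and 0.0526 for Slc25a42, and a carrier median of -0.07. That scaling moved the median of all genes from -0.01 to 0.08 here, from -0.01 to 0.27 between trained groups, from -0.01 to 0.06 for training in wild types, from -0.02 to 0.23 for training in labelled knockouts and from -0.01 to 0.17 for the interaction. Without the 5 Arntl-high libraries 1 WT_Sed heart was left, assumed to vary like the others, so few genes of any kind could be called. The carrier median was then -0.10, with 23 of 31 negative, beside -0.01 over all genes. With log2 Arntl as a covariate 0 rose and 2 fell, Slc25a29 and Slc25a39, and 322 of all 13723 genes fell. Without the 4 Myl7-high libraries 1 rose and 8 fell, and 905 of all genes fell. Under TPM scaling 397 of all genes fell, against 867 in the main fit.

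In trained mice the same genotype comparison gave more calls. Slc25a29 fell most, with a log2 fold change of -1.25 ± 0.14 (SE), and Slc25a33, Slc25a47, Slc25a34, Slc25a39, Slc25a42, Slc25a26, Slc25a20, Slc25a38, Slc25a28 and Slc25a22 were among the others that fell. The uncoupling-protein-like Slc25a30 rose by 0.26 ± 0.09. In all 1 carrier rose and 12 fell (3.23 and 38.7% of 31), while 12.5% of all genes tested rose and 15.4% fell. The median was -0.17 over the carriers, 23 of which had a negative value, and -0.01 over all genes. TPM scaling turned the carrier median to 0.08, with 12 of 31 negative, beside 0.27 over all genes. Under TPM scaling 4 rose and 8 fell: 4 lower calls ended, among them those of Slc25a22, Slc25a28 and Slc25a38, and Slc25a24, Slc25a32 and Slc25a45 were called higher. Of all 13723 genes 790 fell between trained groups under TPM scaling, against 2112 in the main fit. The 5 Arntl-high libraries are all from sedentary mice, so leaving them out removed no trained heart. The carrier median stayed at -0.17, with 23 of 31 negative. Calls that ended there, such as that of Slc25a22 (-0.33), ended through the shared estimate of spread and the adjustment. Without the Myl7-high libraries 1 rose and 12 fell, with 3 KO_Ex and 3 WT_Ex hearts left. In the same hearts 6 of 10 cardiomyocyte markers fell (under TPM scaling 2 rose and 3 fell), with a summed level of 14110 to 16190 FPKM in KO_Ex against 16960 to 21880 FPKM in WT_Ex. All 10 macrophage markers rose (389 to 701 FPKM against 185 to 334 FPKM summed), as did 7 of 8 fibroblast markers (420 to 646 FPKM against 187 to 305 FPKM), and 5 of 8 endothelial markers fell (1 under TPM scaling). Between sedentary groups 2 of 10 cardiomyocyte markers fell, 5 of 10 macrophage markers rose, 0 of 8 fibroblast markers changed and 3 of 8 endothelial markers fell. With Arntl as a covariate 1 cardiomyocyte and 1 endothelial marker fell there, and 0 macrophage and 0 fibroblast markers changed. Summed macrophage markers were 289.6 to 332 FPKM in KO_Sed against 176 to 260 FPKM in WT_Sed hearts. Of the skeletal muscle markers, 3 of 4 tested rose between sedentary groups, with sums of 2306 to 3333 FPKM in KO_Sed against 528 to 1195 FPKM in WT_Sed hearts, and 1 rose and 1 fell between trained groups, with sums of 1483 to 3508 FPKM in KO_Ex against 471.5 to 868.6 FPKM in WT_Ex hearts. Acta1, a skeletal actin that heart also makes, was the largest part of the labelled knockout sums, at 1882 to 2894 FPKM in KO_Sed and 90.0 to 709.9 FPKM in WT_Sed hearts, and 1186 to 3244 FPKM in KO_Ex and 97.4 to 327 FPKM in WT_Ex hearts. Ckm, muscle creatine kinase that heart makes too, was at 419 to 509 FPKM in KO_Sed and 436 to 569 FPKM in WT_Sed hearts, and at 255 to 293 FPKM in KO_Ex and 359.8 to 539.8 FPKM in WT_Ex hearts. The fast fibre gene Tnni2 was at 2.46 to 8.20 FPKM in KO_Sed and 0.459 to 1.44 FPKM in WT_Sed hearts. After training it was at 0.928 to 2.46 FPKM in KO_Ex and 0.434 to 1.28 FPKM in WT_Ex hearts. Tnnt3 was at 0.440 to 1.51 FPKM in KO_Sed and 0.0737 to 0.579 FPKM in WT_Sed hearts. Its trained values were 0.612 to 0.994 FPKM in KO_Ex and 0.252 to 0.720 FPKM in WT_Ex hearts. Actn3 reached at most 1.03 FPKM and Pvalb 0.956 FPKM, and Myh1, Myh2 and Tnnc2 at most 0.123 FPKM in any heart. The part of these markers in the carrier values was not tested.

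Both genotype comparisons, which share no hearts, called the same 5 carriers lower: Slc25a26, Slc25a29, Slc25a34, Slc25a39 and Slc25a42. They are 83.3% of the 6 lower in sedentary and 41.7% of the 12 lower in trained mice, and 16.1% of the 31 tested. Of all genes tested 573 (4.18%) were lower in both, 66.1% of those lower in sedentary and 27.1% of those lower in trained mice. TPM scaling left Slc25a34 and Slc25a39 lower in both (6.45% of the 31 tested), with 254 of all genes (1.85%). Arntl as a covariate left Slc25a29 and Slc25a39 (6.45%), with 307 of all genes (2.24%). The count of all genes lower in both thus also fell, from 573 in the main fit. Without the Arntl-high libraries too few WT_Sed hearts were left to decide this for any gene. Sedentary values of the 5 carriers in that fit are given with each carrier. RefSeq promoter windows on GRCm38.p6, of 250 bases before and 50 after the gene start, were at hand for 28 of the 37 carriers and for 4 of these 5, and those 4 are shown because they belong to the carriers lower in both comparisons. Each reads 5′ to 3′ on the gene's strand, the minus strand in all 4. The start is that of RefSeq. For Slc25a39 the window lies wholly inside the GENCODE M21 span of the gene, 102402985 to 102407946. The RefSeq start of Slc25a39 is thus downstream of the GENCODE one, and its window is not upstream of the latter. Capitals mark, on either strand, the receptor half-site AAGGTCA, the GC box GGGCGG, the E-box CACGTG and the ATF/CREB element TGANGTCA.
Slc25a29, chr12:108835827-108836126: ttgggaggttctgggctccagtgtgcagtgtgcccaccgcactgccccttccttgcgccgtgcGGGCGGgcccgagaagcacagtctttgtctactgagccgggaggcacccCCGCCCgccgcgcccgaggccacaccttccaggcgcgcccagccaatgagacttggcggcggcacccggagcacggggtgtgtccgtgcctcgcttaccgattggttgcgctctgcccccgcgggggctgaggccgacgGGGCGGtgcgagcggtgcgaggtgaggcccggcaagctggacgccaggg
Slc25a34, chr4:141623785-141624084: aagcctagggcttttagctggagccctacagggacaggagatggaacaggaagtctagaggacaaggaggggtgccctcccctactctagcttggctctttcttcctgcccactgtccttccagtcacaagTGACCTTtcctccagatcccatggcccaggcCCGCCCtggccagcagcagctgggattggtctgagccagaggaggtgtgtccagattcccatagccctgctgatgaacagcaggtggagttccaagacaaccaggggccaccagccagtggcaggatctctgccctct
Slc25a39, chr11:102407468-102407767: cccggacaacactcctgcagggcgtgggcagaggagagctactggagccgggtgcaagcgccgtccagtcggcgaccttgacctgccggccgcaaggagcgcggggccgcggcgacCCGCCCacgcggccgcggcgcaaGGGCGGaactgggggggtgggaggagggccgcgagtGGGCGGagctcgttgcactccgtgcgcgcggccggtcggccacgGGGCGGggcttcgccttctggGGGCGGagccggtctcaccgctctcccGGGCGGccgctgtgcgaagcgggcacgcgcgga
Slc25a42, chr8:70212232-70212531: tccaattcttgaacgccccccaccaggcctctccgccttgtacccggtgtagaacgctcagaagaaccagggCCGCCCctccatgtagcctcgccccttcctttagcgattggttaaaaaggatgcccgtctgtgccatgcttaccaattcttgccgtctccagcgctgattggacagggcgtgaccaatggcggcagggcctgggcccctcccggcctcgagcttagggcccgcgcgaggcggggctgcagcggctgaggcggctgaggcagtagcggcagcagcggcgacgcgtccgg

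The AAGGTCA half-site of estrogen-related receptors, nuclear receptors that PGC-1α is known to coactivate, was in 1 of the 28 carrier windows (3.57%), that of Slc25a34, where it lies at bases -119 to -113 from the start. It was in 5.38% of 27025 genes with windows. The longer element TNAAGGTCA, which contains this half-site, was in 0 of 28 carrier windows and in 1.43% of all genes. A GC box was found in 25 of 28 (89.3%) against 38.2% of all genes, and in all 4 windows shown; that of Slc25a39 holds 6 and that of Slc25a29 holds 3. The E-box was in 6 of 28 (21.4%, against 8.09%) and the ATF/CREB element in 4 of 28 (14.3%, against 10.02%), and neither was in these 4 windows. The 27025 genes were not limited to those tested here or to protein-coding genes, while the carriers are all protein-coding, so these shares compare unlike sets. Such a match says only that the letters are present in the window.

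Training in wild-type mice changed few carriers. Slc25a47, a liver-enriched carrier, rose by 0.52 ± 0.13 (SE) in WT_Ex against WT_Sed hearts, and Slc25a34 fell by 0.57 ± 0.13. That is 1 higher and 1 lower of 31 (3.23% each), where 2.94% of all genes rose and 2.53% fell, with medians of 0.04 over the carriers and -0.01 over all genes, and 0.11 and 0.06 under TPM scaling in the same order. Both calls ended without the Myl7-high libraries (adjusted p = 0.197 for Slc25a47 and 0.202 for Slc25a34), without the Arntl-high libraries (0.633 and 0.301 in the same order) and with Arntl as a covariate (0.285 and 0.0974).

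Training in labelled knockout mice moved 12 carriers. Slc25a34, Slc25a33, Slc25a20, Slc25a29, Slc25a42, Slc25a47, Slc25a28, Slc25a38 and Slc25a10 fell in KO_Ex against KO_Sed hearts, and the ATP-Mg/phosphate carriers Slc25a24 and Slc25a23 and the uncoupling-protein-like Slc25a30 rose. The 3 higher and 9 lower are 9.68 and 29% of 31, and 12.1% of all genes rose while 16.3% fell; the medians were -0.14 over the carriers, 22 of them negative, and -0.02 over all genes. TPM scaling turned the carrier median to 0.10, with 10 of 31 negative, beside 0.23 over all genes. With it 6 rose and 4 fell, with Slc25a1, Slc25a37 and Slc25a45 called higher and the calls of Slc25a10, Slc25a28, Slc25a33, Slc25a38 and Slc25a47 ended. Without the Myl7-high libraries 5 rose and 14 fell, and without the Arntl-high ones 2 rose and 10 fell, where Slc25a23 and Slc25a30 lost their calls and Slc25a36 was called higher. Of the markers, 6 of 10 for cardiomyocytes fell, and 10 of 10 for macrophages and 6 of 8 for fibroblasts rose, and their part was not tested. This comparison shares KO_Ex hearts with the trained genotype comparison and KO_Sed hearts with the sedentary one.

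**Figure D2:**
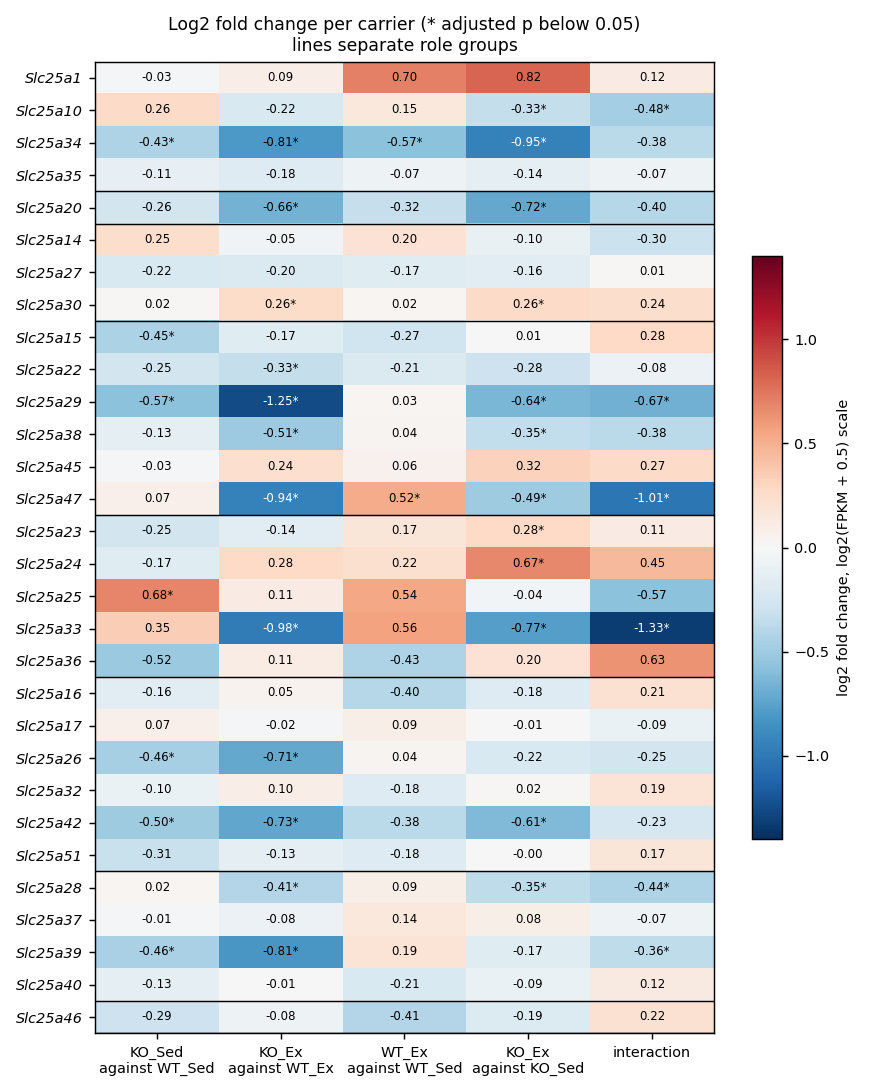
Log2 fold changes of 30 tested carriers, 1 line per carrier and 1 column per comparison, blue for lower and red for higher, with an asterisk at an adjusted p below 0.05. Of the 30 carriers drawn, 12 were called in trained genotype, 12 in labelled knockout training, 7 in sedentary genotype and 2 in wild-type training. Over all genes tested, 12.5% rose and 15.4% fell in the first and 12.1% and 16.3% in the second. In sedentary genotype 6.96% rose and 6.32% fell, and in wild-type training 2.94% and 2.53%. More calls in the first 2 columns were thus also seen over all genes.

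Among the carriers of organic acids, Slc25a34 (ENSMUSG00000040740, minus strand of chromosome 4, 141618824 to 141623821, GRCm38) was the most abundant. Slc25a34 had 56.8, 66.7, 70.7, 73.5 and 75.2 FPKM in the 5 KO_Sed hearts, against 83.5, 77.4, 89.2, 114 and 100.2 FPKM in the 5 WT_Sed hearts. After training, Slc25a34 had 34.1, 32.0, 36.0, 31.0 and 43.4 FPKM in KO_Ex hearts and 78.1, 61.7, 72.9, 51.4 and 49.3 FPKM in WT_Ex hearts. Every labelled knockout heart lay below every wild-type heart of the same state, and the trained KO_Ex hearts were below all others. The log2 fold change was -0.43 ± 0.13, adjusted p = 0.0393, in sedentary and -0.81 ± 0.13, adjusted p = 0.000126, in trained mice, and training gave -0.95 ± 0.13, adjusted p = 4.11e-05, in labelled knockouts and -0.57 ± 0.13, adjusted p = 0.0235, in wild types (limma). Its interaction was -0.38 ± 0.19, adjusted p = 0.208, so a difference between the training changes was not shown. For Slc25a34 in sedentary mice, leaving out any 1 of 9 hearts ended the call (WT_Sed replicates 1, 3, 4 and 5 and KO_Sed replicates 1, 2, 3, 4 and 5); the log2 fold change lay between -0.49 and -0.35 over all 20 hearts left out in turn. Slc25a34 lost its call in wild-type training without any 1 of 4 hearts (WT_Sed replicate 3 and WT_Ex replicates 2, 4 and 5), and the values over all 20 hearts left out in turn lay between -0.66 and -0.49 on the log2 scale. The sedentary value was -0.48 (adjusted p = 0.534) without the Arntl-high libraries and -0.49 (0.11) with Arntl as a covariate.

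Slc25a10, the dicarboxylate carrier (ENSMUSG00000025792, plus strand of chromosome 11, 120491840 to 120499187), exchanges malate or succinate for phosphate. Slc25a10 had 4.56, 6.36, 6.06, 5.69 and 6.43 FPKM in the 5 KO_Sed hearts, against 4.70, 4.48, 4.65, 4.50 and 5.36 FPKM in the 5 WT_Sed hearts. After training, Slc25a10 had 4.27, 5.26, 4.21, 4.47 and 4.29 FPKM in KO_Ex hearts and 5.67, 4.82, 4.58, 6.82 and 4.84 FPKM in WT_Ex hearts. All groups overlapped their comparison group. It fell with training in labelled knockouts (-0.33 ± 0.10, adjusted p = 0.019), its change in wild types was 0.15 ± 0.10, adjusted p = 0.353, and the difference between these, the interaction, passed the test (-0.48 ± 0.14, adjusted p = 0.0488). The Slc25a10 call in labelled knockout training ended when any 1 of 2 hearts was left out (KO_Sed replicates 2 and 5), with log2 fold changes between -0.41 and -0.30 over the 20 hearts left out in turn. For Slc25a10 in the interaction, leaving out any 1 of 15 hearts ended the call (WT_Sed replicates 1, 2, 3 and 4, KO_Sed replicates 2, 3, 4 and 5, WT_Ex replicates 1, 2 and 4 and KO_Ex replicates 1, 3, 4 and 5); the log2 fold change lay between -0.56 and -0.40 over all 20 hearts left out in turn. Voom on recovered reads (adjusted p = 0.0576) and a fit with no minimum level (0.0801) also ended it, and it was -0.39 (adjusted p = 0.609) without the Arntl-high libraries and -0.32 (0.226) with Arntl as a covariate. Without the Myl7-high libraries the interaction had an adjusted p of 0.0605.

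The other organic acid carriers were not called in any comparison. Slc25a1, the citrate carrier, averaged 7.29 ± 5.32 FPKM in KO_Ex and 7.33 ± 6.24 FPKM in WT_Ex hearts, against 3.37 ± 0.367 FPKM in KO_Sed and 3.49 ± 0.749 FPKM in WT_Sed hearts (SD, n = 5). Its highest libraries were WT_Ex replicate 4 at 18.0 FPKM, KO_Ex replicate 2 at 16.8 FPKM and WT_Ex replicate 5 at 7.69 FPKM, which were the 3 libraries with the highest summed fat-cell markers (181, 300.1 and 90.8 FPKM in that order). Slc25a35 averaged 2.17 ± 0.274 FPKM in KO_Sed and 2.40 ± 0.400 FPKM in WT_Sed hearts, and 2.03 ± 0.952 FPKM in KO_Ex and 2.25 ± 0.315 FPKM in WT_Ex hearts.

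Slc25a20 (ENSMUSG00000032602, plus strand of chromosome 9, 108662088 to 108684641) imports acylcarnitines in exchange for carnitine. Slc25a20 had 35.3, 38.7, 40.8, 37.4 and 36.6 FPKM in the 5 KO_Sed hearts, against 43.3, 42.0, 44.3, 50.9 and 45.9 FPKM in the 5 WT_Sed hearts. After training, Slc25a20 had 21.6, 27.8, 22.3, 18.0 and 25.0 FPKM in KO_Ex hearts and 44.6, 33.9, 39.9, 31.3 and 32.2 FPKM in WT_Ex hearts. The labelled knockout hearts lay below the wild types in each state without overlap. The sedentary difference did not pass the test (-0.26 ± 0.11, adjusted p = 0.114), while the trained one did (-0.66 ± 0.11, adjusted p = 9.96e-05), and the interaction was -0.40 ± 0.15, adjusted p = 0.105. Training lowered it in labelled knockouts (-0.72 ± 0.11, adjusted p = 6.36e-05), and the wild-type change was -0.32 ± 0.11, adjusted p = 0.0753. Without the Myl7-high libraries its interaction passed (-0.66, adjusted p = 0.00741).

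Amino acid carriers held the widest genotype difference. Slc25a29 (ENSMUSG00000021265, minus strand of chromosome 12, 108825873 to 108835883) carries basic amino acids such as arginine and lysine. Slc25a29 had 2.03, 3.36, 3.50, 3.53 and 3.92 FPKM in the 5 KO_Sed hearts, against 5.00, 4.84, 4.50, 4.95 and 5.86 FPKM in the 5 WT_Sed hearts. After training, Slc25a29 had 1.51, 2.16, 1.37, 2.01 and 2.50 FPKM in KO_Ex hearts and 4.81, 5.60, 4.44, 5.33 and 5.57 FPKM in WT_Ex hearts. No labelled knockout heart reached a wild-type heart of the same state. The log2 fold change was -0.57 ± 0.14, adjusted p = 0.0106, in sedentary and -1.25 ± 0.14, adjusted p = 1.9e-06, in trained mice. Training lowered it in labelled knockouts (-0.64 ± 0.14, adjusted p = 0.00202), with 0.03 ± 0.14, adjusted p = 0.904, in wild types and an interaction of -0.67 ± 0.20, adjusted p = 0.0464. Slc25a29 lost its call in the interaction without any 1 of 15 hearts (WT_Sed replicates 1, 2, 3 and 4, KO_Sed replicates 2, 3, 4 and 5, WT_Ex replicates 2, 3, 4 and 5 and KO_Ex replicates 1, 3 and 4), and the values over all 20 hearts left out in turn lay between -0.81 and -0.59 on the log2 scale. The Slc25a29 difference in sedentary mice was -0.64 (adjusted p = 0.294) without the Arntl-high libraries and -0.89 (0.000311) with Arntl as a covariate, so the covariate kept the call. Its interaction was -0.60 (adjusted p = 0.509) without the Arntl-high libraries and -0.38 (0.195) with Arntl as a covariate.

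Slc25a47 (ENSMUSG00000048856, plus strand of chromosome 12, 108836046 to 108856815) is best known from liver, and its substrate is debated. The gene model holds 2 protein-coding transcripts, which begin at 108851129, and 3 noncoding ones, the first of which begins at 108836046, 162 bases from Slc25a29 on the other strand, and its FPKM does not separate them. Slc25a47 had 1.91, 2.62, 2.73, 2.10 and 2.60 FPKM in the 5 KO_Sed hearts, against 1.64, 2.20, 2.56, 2.27 and 2.65 FPKM in the 5 WT_Sed hearts. After training, Slc25a47 had 1.75, 1.53, 1.43, 1.27 and 1.75 FPKM in KO_Ex hearts and 2.48, 3.85, 3.82, 4.12 and 3.07 FPKM in WT_Ex hearts. Sedentary groups overlapped, whereas all 5 KO_Ex hearts were below all 5 WT_Ex and all 5 KO_Sed hearts. The sedentary difference was 0.07 ± 0.13, adjusted p = 0.757, and the trained one was -0.94 ± 0.13, adjusted p = 1.76e-05. Training moved it in opposite directions, with -0.49 ± 0.13, adjusted p = 0.00712, in labelled knockouts and 0.52 ± 0.13, adjusted p = 0.0317, in wild types, and the interaction was -1.01 ± 0.18, adjusted p = 0.00702. The Slc25a47 call in wild-type training ended when any 1 of 5 hearts was left out (WT_Sed replicates 1, 2 and 3 and WT_Ex replicates 2 and 4), with log2 fold changes between 0.43 and 0.61 over the 20 hearts left out in turn. The interaction kept an adjusted p below 0.05 with each heart left out in turn. It did not without the Arntl-high libraries (adjusted p = 0.352), and it passed with Arntl as a covariate (-0.87, adjusted p = 0.0335).

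Slc25a38 (ENSMUSG00000032519, plus strand of chromosome 9, 120110374 to 120124504) supplies glycine to the matrix for heme synthesis. Slc25a38 had 8.57, 9.43, 9.57, 9.14 and 9.73 FPKM in the 5 KO_Sed hearts, against 8.88, 10.3, 9.26, 11.5 and 11.3 FPKM in the 5 WT_Sed hearts. After training, Slc25a38 had 6.24, 8.50, 6.17, 7.01 and 8.39 FPKM in KO_Ex hearts and 9.96, 9.24, 12.1, 11.4 and 9.95 FPKM in WT_Ex hearts. Sedentary groups overlapped, and KO_Ex hearts lay below both WT_Ex and KO_Sed hearts. The trained difference was -0.51 ± 0.10, adjusted p = 0.000545, and the training change in labelled knockouts -0.35 ± 0.10, adjusted p = 0.012; the sedentary difference was -0.13 ± 0.10, adjusted p = 0.387.

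The ornithine carrier Slc25a15 (ENSMUSG00000031482, minus strand of chromosome 8, 22375551 to 22398597) serves the urea cycle in liver. Slc25a15 had 2.62, 2.24, 1.86, 2.24 and 1.97 FPKM in the 5 KO_Sed hearts, against 3.31, 3.27, 3.54, 2.80 and 2.86 FPKM in the 5 WT_Sed hearts. After training, Slc25a15 had 2.38, 2.28, 2.03, 2.21 and 2.05 FPKM in KO_Ex hearts and 3.12, 2.20, 2.82, 2.27 and 2.26 FPKM in WT_Ex hearts. It was separated by genotype in sedentary mice, with overlap in trained mice. The log2 fold change was -0.45 ± 0.09, adjusted p = 0.00419, in sedentary and -0.17 ± 0.09, adjusted p = 0.213, in trained mice, and the interaction was 0.28 ± 0.13, adjusted p = 0.194, so a difference between states was not shown. Without the Arntl-high libraries the sedentary value was -0.39 (adjusted p = 0.451), and with Arntl as a covariate it was -0.30 (0.103).

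Of the remaining amino acid carriers, the glutamate carrier Slc25a22 averaged 7.86 ± 0.999 FPKM in KO_Ex and 10.2 ± 2.46 FPKM in WT_Ex hearts (SD, n = 5; -0.33 ± 0.12, adjusted p = 0.0409). For Slc25a22 in trained mice, leaving out any 1 of 7 hearts ended the call (WT_Ex replicates 1, 2 and 3 and KO_Ex replicates 1, 3, 4 and 5); the log2 fold change lay between -0.40 and -0.21 over all 20 hearts left out in turn. In sedentary mice its values were 9.66 ± 0.962 FPKM in KO_Sed and 11.6 ± 0.409 FPKM in WT_Sed hearts, without overlap and without a call (-0.25 ± 0.12, adjusted p = 0.157). Slc25a45 was not called, at 3.14 ± 0.778 FPKM in KO_Ex and 2.58 ± 0.603 FPKM in WT_Ex hearts, though TPM scaling called it higher (0.53, adjusted p = 0.0226). In all, 4 of the 6 tested carriers listed with amino acids fell between trained groups and 2 of 6 between sedentary groups. This list counts Slc25a47, whose substrate is debated, among the 4. Of all genes tested 15.4% and 6.32% fell in the same order.

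**Figure D3:**
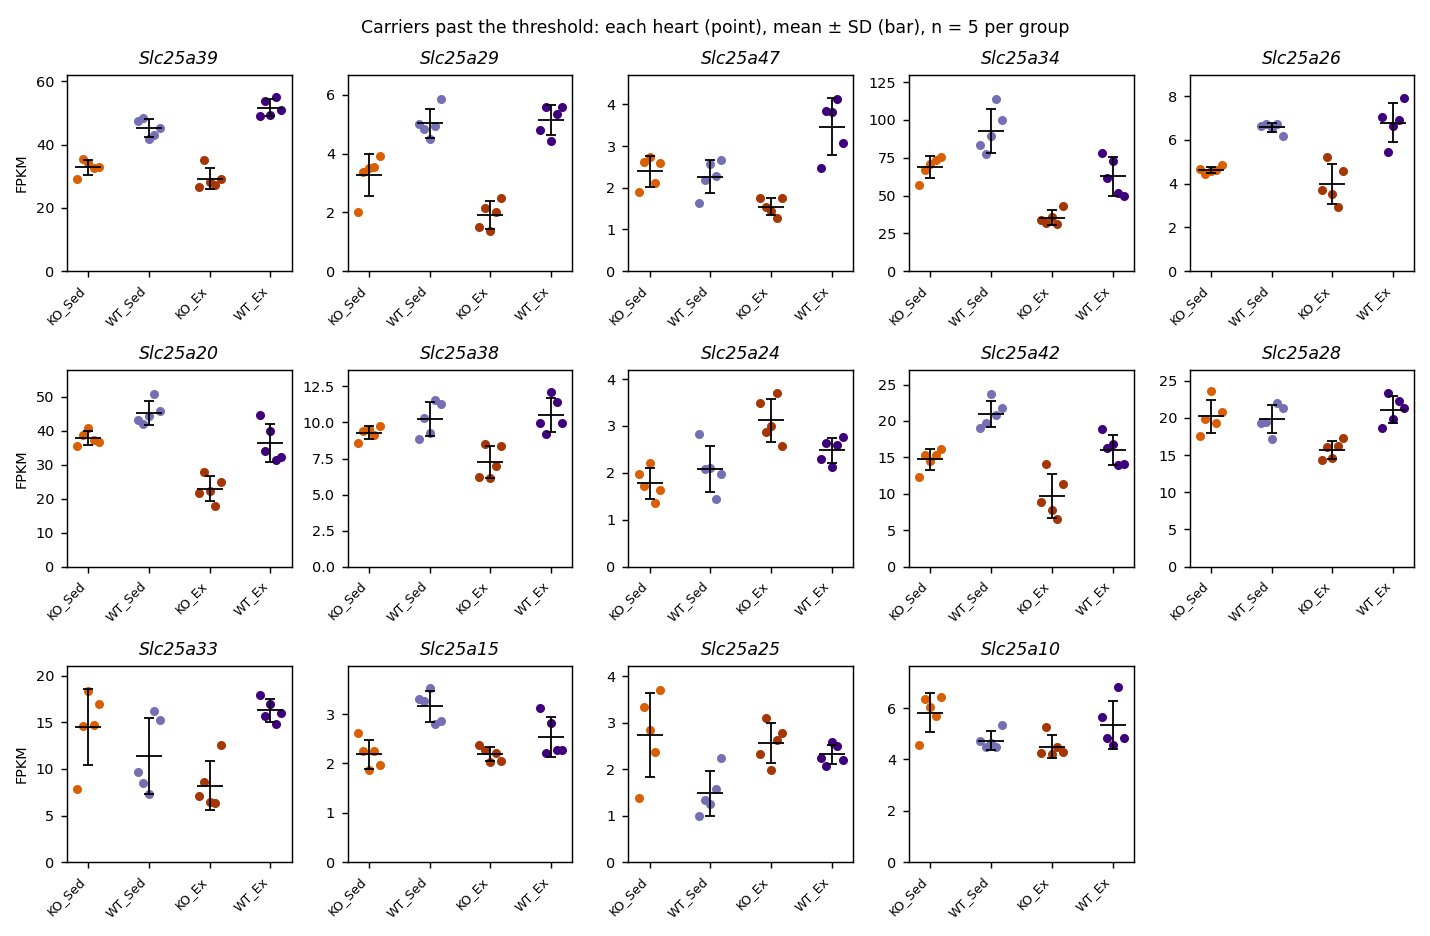
FPKM in each of the 20 hearts for the 14 carriers with the smallest adjusted p in a pairwise comparison, with points for hearts and bars for the mean ± SD of 5 hearts. KO_Ex hearts lie below WT_Ex hearts without overlap for Slc25a39, Slc25a29, Slc25a47, Slc25a34, Slc25a26, Slc25a20, Slc25a38, Slc25a28 and Slc25a33. These carriers were picked by adjusted p in the same hearts, which favours separated groups. The share of all genes without overlap was not counted.

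Nucleotide carriers moved in both directions. Slc25a33 (ENSMUSG00000028982, minus strand of chromosome 4, 149744036 to 149774277) imports pyrimidine nucleotides. Slc25a33 had 7.83, 14.6, 18.3, 14.7 and 16.9 FPKM in the 5 KO_Sed hearts, against 9.63, 8.51, 7.30, 16.3 and 15.3 FPKM in the 5 WT_Sed hearts. After training, Slc25a33 had 7.07, 8.57, 6.51, 6.39 and 12.6 FPKM in KO_Ex hearts and 18.0, 15.7, 16.9, 14.8 and 16.0 FPKM in WT_Ex hearts. Both sedentary groups were spread widely, with KO_Sed replicate 1 and WT_Sed replicates 1, 2 and 3 low, and all KO_Ex hearts were below all WT_Ex hearts. The trained difference was -0.98 ± 0.23, adjusted p = 0.00308, against 0.35 ± 0.23, adjusted p = 0.322, in sedentary mice. Training gave -0.77 ± 0.23, adjusted p = 0.0165, in labelled knockouts and 0.56 ± 0.23, adjusted p = 0.133, in wild types, and the interaction of -1.33 ± 0.33, adjusted p = 0.0213, was the widest among the carriers. It passed with each heart left out in turn, but had an adjusted p of 0.0529 under TPM scaling, 0.0928 with Arntl as a covariate and 0.358 without the Arntl-high libraries.

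Slc25a24 (ENSMUSG00000040322, plus strand of chromosome 3, 109123149 to 109168457) exchanges ATP-Mg for phosphate under control of calcium. Slc25a24 had 1.98, 1.73, 2.20, 1.35 and 1.63 FPKM in the 5 KO_Sed hearts, against 2.82, 2.08, 2.11, 1.45 and 1.97 FPKM in the 5 WT_Sed hearts. After training, Slc25a24 had 3.49, 2.88, 2.99, 3.69 and 2.57 FPKM in KO_Ex hearts and 2.29, 2.64, 2.13, 2.60 and 2.76 FPKM in WT_Ex hearts. All 5 KO_Ex hearts were above all 5 KO_Sed hearts, and the genotypes overlapped in both states. Training raised it in labelled knockouts (0.67 ± 0.13, adjusted p = 0.00061), and the wild-type change was 0.22 ± 0.13, adjusted p = 0.262. The interaction was 0.45 ± 0.18, adjusted p = 0.13. The genotype difference in trained mice was 0.28 ± 0.13, adjusted p = 0.118, and under TPM scaling it was 0.57 with an adjusted p of 0.0109.

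Slc25a25 (ENSMUSG00000026819, minus strand of chromosome 2, 32414487 to 32451445) is a paralogue of Slc25a24. Slc25a25 had 1.39, 3.34, 2.84, 2.37 and 3.71 FPKM in the 5 KO_Sed hearts, against 0.985, 1.33, 1.26, 1.58 and 2.25 FPKM in the 5 WT_Sed hearts. After training, Slc25a25 had 2.32, 3.10, 1.98, 2.63 and 2.78 FPKM in KO_Ex hearts and 2.24, 2.07, 2.58, 2.49 and 2.19 FPKM in WT_Ex hearts. Of the sedentary labelled knockouts 4 of 5 were above every WT_Sed heart, and replicate 1, the Arntl-high library, was within their range. The sedentary difference was 0.68 ± 0.18, adjusted p = 0.0175, and the trained one was 0.11 ± 0.18, adjusted p = 0.699, with an interaction of -0.57 ± 0.26, adjusted p = 0.17. Slc25a25 lost its call in sedentary mice without any 1 of 3 hearts (WT_Sed replicate 1 and KO_Sed replicates 2 and 5), and the values over all 20 hearts left out in turn lay between 0.58 and 0.86 on the log2 scale. Without the Arntl-high libraries the sedentary value was 0.36 (adjusted p = 0.662), and with Arntl as a covariate it was 0.28 (0.383).

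The third calcium-regulated carrier, Slc25a23, averaged 11.1 ± 0.824 FPKM in KO_Ex and 9.08 ± 0.644 FPKM in KO_Sed hearts (SD, n = 5), a rise of 0.28 ± 0.09, adjusted p = 0.0294. The Slc25a23 call in labelled knockout training ended when any 1 of 3 hearts was left out (KO_Sed replicate 3 and KO_Ex replicates 2 and 4), with log2 fold changes between 0.25 and 0.31 over the 20 hearts left out in turn. Slc25a36, another pyrimidine nucleotide carrier, was not called in any comparison. It averaged 3.52 ± 1.198 FPKM in KO_Sed and 5.34 ± 1.83 FPKM in WT_Sed hearts, and 4.00 ± 0.319 FPKM in KO_Ex and 3.70 ± 0.666 FPKM in WT_Ex hearts. Of the 5 tested nucleotide carriers 2 rose and 1 fell with training in labelled knockouts, and 1 fell between trained groups. Of all genes tested 12.1% rose and 16.3% fell in the first, and 15.4% fell in the second.

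Among cofactor carriers, Slc25a26 (ENSMUSG00000045100, plus strand of chromosome 6, 94500331 to 94604672) imports S-adenosylmethionine, the methyl donor. Slc25a26 had 4.69, 4.46, 4.58, 4.63 and 4.83 FPKM in the 5 KO_Sed hearts, against 6.65, 6.72, 6.56, 6.73 and 6.19 FPKM in the 5 WT_Sed hearts. After training, Slc25a26 had 3.73, 5.20, 3.52, 2.92 and 4.56 FPKM in KO_Ex hearts and 7.03, 5.42, 6.64, 6.92 and 7.92 FPKM in WT_Ex hearts. All labelled knockout hearts were below all wild-type hearts of the same state, and the sedentary groups were tight. The log2 fold change was -0.46 ± 0.11, adjusted p = 0.00845, in sedentary and -0.71 ± 0.11, adjusted p = 5.25e-05, in trained mice. Training gave -0.22 ± 0.11, adjusted p = 0.144, in labelled knockouts, 0.04 ± 0.11, adjusted p = 0.854, in wild types and an interaction of -0.25 ± 0.15, adjusted p = 0.294. For Slc25a26 the sedentary value was -0.38 (adjusted p = 0.661) without the Arntl-high libraries and -0.47 (0.0518) with Arntl as a covariate.

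Slc25a42 (ENSMUSG00000002346, minus strand of chromosome 8, 70184340 to 70212305) imports coenzyme A. Slc25a42 had 12.4, 15.3, 14.5, 15.4 and 16.2 FPKM in the 5 KO_Sed hearts, against 19.1, 19.7, 23.7, 20.8 and 21.7 FPKM in the 5 WT_Sed hearts. After training, Slc25a42 had 8.94, 14.1, 7.78, 6.58 and 11.4 FPKM in KO_Ex hearts and 18.9, 16.3, 16.8, 14.0 and 14.1 FPKM in WT_Ex hearts. Sedentary groups were apart. After training, KO_Ex replicate 2 lay above WT_Ex replicate 4, the lowest of its group, and just below WT_Ex replicate 5, all of them Myl7-high libraries. The log2 fold change was -0.50 ± 0.15, adjusted p = 0.0296, in sedentary and -0.73 ± 0.15, adjusted p = 0.000825, in trained mice. Training lowered it in labelled knockouts (-0.61 ± 0.15, adjusted p = 0.00375), and in wild types the change was -0.38 ± 0.15, adjusted p = 0.111, where all 5 WT_Ex hearts were below all 5 WT_Sed hearts. The interaction was -0.23 ± 0.21, adjusted p = 0.482, and without the Myl7-high libraries it was -0.62 (adjusted p = 0.0176). For Slc25a42 in sedentary mice, leaving out any 1 of 4 hearts ended the call (WT_Sed replicate 3 and KO_Sed replicates 1, 3 and 4); the log2 fold change lay between -0.53 and -0.44 over all 20 hearts left out in turn. In sedentary mice it was -0.49 (adjusted p = 0.665) without the Arntl-high libraries and -0.60 (0.0661) with Arntl as a covariate.

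The tested cofactor carriers Slc25a51 for NAD+, Slc25a32 for folate, the peroxisomal Slc25a17 and Slc25a16 were not called. Slc25a51 averaged 14.5 ± 1.14 FPKM in KO_Sed and 18.1 ± 1.66 FPKM in WT_Sed hearts (-0.31 ± 0.11, adjusted p = 0.0696). Slc25a16 averaged 6.25 ± 1.32 FPKM in KO_Sed and 6.99 ± 0.833 FPKM in WT_Sed hearts, Slc25a17 6.65 ± 0.528 and 6.29 ± 0.435 FPKM, and Slc25a32 2.61 ± 0.304 and 2.83 ± 0.440 FPKM in the same groups. In trained mice Slc25a32 was 0.10 ± 0.10, adjusted p = 0.533, and TPM scaling called it higher (0.38, adjusted p = 0.0242). Of 7 tested cofactor carriers 2 fell between sedentary and 3 between trained groups, where 6.32% and 15.4% of all genes tested fell.

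Iron and glutathione carriers came next. Slc25a39 (ENSMUSG00000018677, minus strand of chromosome 11, 102402985 to 102407946) had the smallest adjusted p of any carrier. Slc25a39 had 29.0, 35.3, 34.3, 32.5 and 33.0 FPKM in the 5 KO_Sed hearts, against 47.5, 48.3, 41.9, 42.9 and 45.2 FPKM in the 5 WT_Sed hearts. After training, Slc25a39 had 26.5, 35.0, 28.1, 27.3 and 29.2 FPKM in KO_Ex hearts and 48.9, 53.9, 49.3, 55.0 and 50.9 FPKM in WT_Ex hearts. Labelled knockouts were below wild types without overlap in both states, and all WT_Ex hearts were above all WT_Sed hearts. The log2 fold change was -0.46 ± 0.07, adjusted p = 0.000482, in sedentary and -0.81 ± 0.07, adjusted p = 1.67e-07, in trained mice. Training gave -0.17 ± 0.07, adjusted p = 0.0999, in labelled knockouts and 0.19 ± 0.07, adjusted p = 0.113, in wild types, and neither passed, while the interaction did (-0.36 ± 0.10, adjusted p = 0.0438). Slc25a39 lost its call in the interaction without any 1 of 15 hearts (WT_Sed replicates 1, 2, 3 and 4, KO_Sed replicates 2, 3, 4 and 5, WT_Ex replicates 2, 3, 4 and 5 and KO_Ex replicates 1, 3 and 4), and the values over all 20 hearts left out in turn lay between -0.42 and -0.33 on the log2 scale. Its sedentary difference was -0.42 (adjusted p = 0.25) without the Arntl-high libraries and -0.54 (0.00113) with Arntl as a covariate, and the covariate kept that call, while its interaction was -0.40 (adjusted p = 0.48) without the Arntl-high libraries and -0.28 (0.185) with Arntl as a covariate.

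Slc25a28 (ENSMUSG00000040414, minus strand of chromosome 19, 43663801 to 43674881) is the iron importer of non-erythroid cells. Slc25a28 had 17.6, 19.8, 23.6, 19.3 and 20.7 FPKM in the 5 KO_Sed hearts, against 19.3, 19.5, 17.2, 22.0 and 21.3 FPKM in the 5 WT_Sed hearts. After training, Slc25a28 had 14.4, 16.1, 14.6, 16.2 and 17.3 FPKM in KO_Ex hearts and 18.7, 23.3, 19.8, 22.2 and 21.3 FPKM in WT_Ex hearts. Sedentary groups overlapped, and every KO_Ex heart was below every WT_Ex and every KO_Sed heart. The trained difference was -0.41 ± 0.08, adjusted p = 0.000962, against 0.02 ± 0.08, adjusted p = 0.877, in sedentary mice. Training gave -0.35 ± 0.08, adjusted p = 0.00396, in labelled knockouts and 0.09 ± 0.08, adjusted p = 0.523, in wild types, with an interaction of -0.44 ± 0.12, adjusted p = 0.0339. The Slc25a28 call in the interaction ended when any 1 of 11 hearts was left out (WT_Sed replicates 1, 2 and 3, KO_Sed replicates 2, 3 and 5, WT_Ex replicates 2 and 4 and KO_Ex replicates 1, 3 and 4), with log2 fold changes between -0.48 and -0.38 over the 20 hearts left out in turn. This interaction was -0.38 (adjusted p = 0.525) without the Arntl-high libraries and -0.30 (0.156) with Arntl as a covariate, with an adjusted p of 0.059 without the Myl7-high ones. Slc25a37, mitoferrin-1 of red cell precursors, and Slc25a40 were not called; Slc25a37 averaged 5.37 ± 0.383 FPKM in KO_Ex and 5.72 ± 0.717 FPKM in WT_Ex hearts, and Slc25a40 0.953 ± 0.113 and 0.958 ± 0.111 FPKM in the same groups.

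Of the uncoupling-protein-like carriers, Slc25a30 averaged 2.94 ± 0.275 FPKM in KO_Ex, 2.38 ± 0.277 FPKM in WT_Ex and 2.37 ± 0.264 FPKM in KO_Sed hearts. It rose between trained groups (0.26 ± 0.09, adjusted p = 0.0327) and with training in labelled knockouts (0.26 ± 0.09, adjusted p = 0.0297). For Slc25a30 in trained mice, leaving out any 1 of 5 hearts ended the call (WT_Ex replicates 2 and 5 and KO_Ex replicates 1, 3 and 4); the log2 fold change lay between 0.20 and 0.30 over all 20 hearts left out in turn. Slc25a30 lost its call in labelled knockout training without any 1 of 6 hearts (KO_Sed replicates 1, 3 and 4 and KO_Ex replicates 1, 3 and 4), and the values over all 20 hearts left out in turn lay between 0.22 and 0.31 on the log2 scale. Slc25a14 and Slc25a27, which are known from brain, were not called, at 1.06 ± 0.125 and 1.53 ± 0.196 FPKM in KO_Ex and 1.16 ± 0.439 and 1.86 ± 0.449 FPKM in WT_Ex hearts, in that order. Slc25a46, which takes part in mitochondrial dynamics, was not called either, at 13.1 ± 2.31 FPKM in KO_Sed and 16.2 ± 3.44 FPKM in WT_Sed hearts.

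Whether the training change differed with the knockout label was tested as an interaction, the change in labelled knockouts minus that in wild types. It passed the test, and was negative, for Slc25a33, Slc25a47, Slc25a29, Slc25a10, Slc25a28 and Slc25a39, so 0 carriers were called higher and 6 lower (0 and 19.4% of 31). Over all genes tested 2.32% were higher and 5% lower, and the medians were -0.08 over the carriers, 18 of them negative, and -0.01 over all genes. TPM scaling turned the carrier median to 0.09, with 13 of 31 negative, beside 0.17 over all genes. At an unadjusted p below 0.05, 2 carriers were higher and 9 lower. Under TPM scaling 1 carrier, Slc25a47, was called, with 5 others ending (adjusted p = 0.0529 for Slc25a33 to 0.506 for Slc25a39). Without the Myl7-high libraries 8 were lower. Without the Arntl-high libraries, which left 1 WT_Sed heart, the carrier median was -0.14, with 21 of 31 negative, beside -0.005 over all genes. With Arntl as a covariate Slc25a47 alone was called, the other 5 having an adjusted p of 0.0928 to 0.226. Among fibroblast markers 4 of 8 and among macrophage markers 3 of 10 had a positive interaction and 2 of 10 cardiomyocyte markers a negative one. Their part in the carrier values was not tested.

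**Figure D4:**
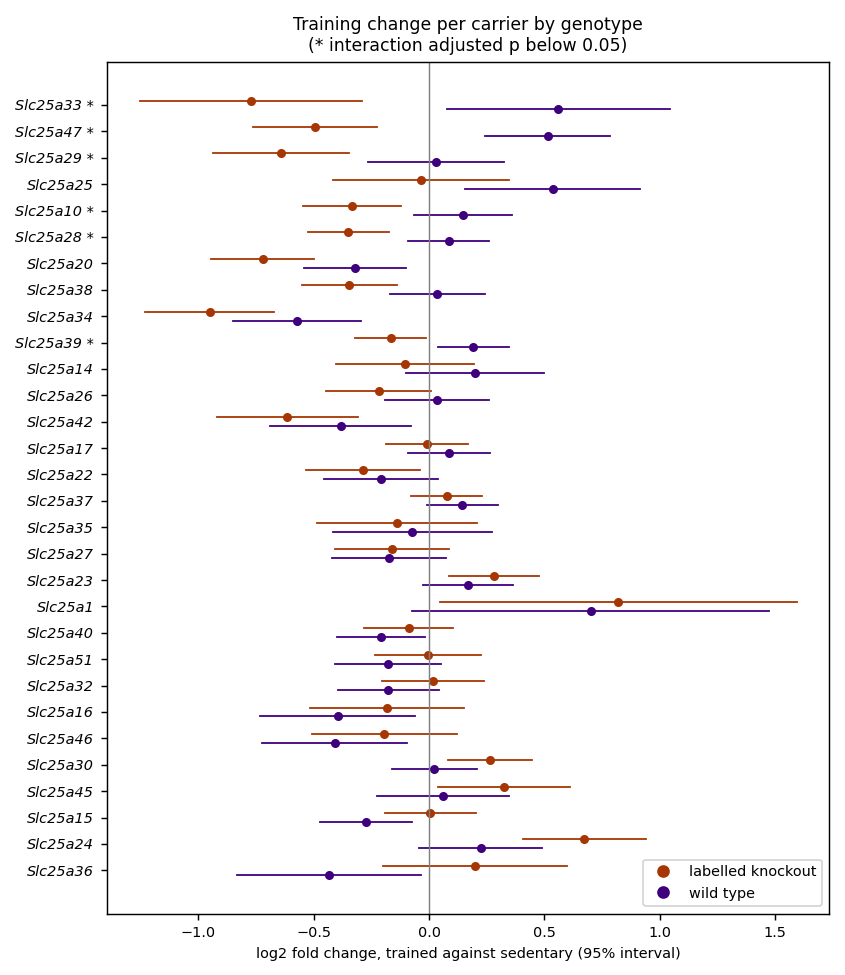
Log2 fold change of 30 tested carriers with training, as a point with its 95% interval, in labelled knockout and wild-type mice, ordered by the interaction from most negative at the top. Slc25a33 and Slc25a47 lie left of 0 in labelled knockouts and right of 0 in wild types, with interactions of -1.33 and -1.01.

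The carriers excluded by the rule were set beside these. Over all genes tested 6.96% rose and 6.32% fell between sedentary groups, and 12.5% rose and 15.4% fell between trained groups. With training 12.1% rose and 16.3% fell in labelled knockouts, and 2.94% rose and 2.53% fell in wild types. Of 7 tested, 0 rose and 3 fell between sedentary groups, and 0 rose and 6 fell between trained groups, with medians of -0.18 and -0.73. Slc25a11 was at -0.88 (adjusted p = 1.02e-07), Slc25a3 at -0.76 (1.18e-07) and Slc25a12 at -0.73 (7.1e-07) in trained mice. Members of the family under other symbols, 5 in all, included the uncoupling protein Ucp2, which rose by 1.24 (0.0104) in KO_Sed hearts. Training in labelled knockouts lowered 5 of the 7 excluded carriers and 2 of the 5 under other symbols, and in wild types 0 of 7 and 0 of 5 changed. In trained mice Mtch2 fell (-0.23, adjusted p = 0.00455) and the others were not called. With Arntl as a covariate 2 of the 7 excluded carriers fell between sedentary groups and 0 of the 5 under other symbols changed, with Ucp2 at 0.56 (adjusted p = 0.261). Without the Arntl-high libraries, which left 1 WT_Sed heart, Ucp2 was at 0.86. The Arntl-high KO_Sed replicate 1 had the lowest Ucp2 of its group, 21.3 FPKM, and WT_Sed replicate 5, the WT_Sed heart without high Arntl, the highest of its own, 20.9 FPKM. Under TPM scaling 1 of the 7 excluded carriers rose and 4 fell between trained groups, and Mtch2 was at 0.05 (0.565).

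Among 19 other inner membrane transporters, 0 rose and 4 fell between sedentary groups and 2 rose and 6 fell between trained groups. Of all genes tested 6.32% fell between sedentary groups, and 12.5% rose and 15.4% fell between trained groups. Both subunits of the mitochondrial pyruvate carrier, which is not of the Slc25 family, fell in each. Mpc2 was at -1.34 (adjusted p = 2.71e-09) in trained and -0.65 (4.06e-05) in sedentary mice, and Mpc1 at -0.90 (8.35e-08) and -0.48 (0.000383) in the same order. The ABC transporter Abcb8 was at -0.67 (1.03e-06) and the ion exchanger component Letm1 at -0.61 (1.23e-06) in trained mice. All 3 outer membrane channels fell in trained mice, and Vdac3 was at -0.51 (1.56e-05); 0 of 3 were called in sedentary mice. With training in labelled knockouts 2 of the 19 transporters rose and 6 fell and all 3 channels fell, and in wild types 0 of 19 and 0 of 3 changed. In sedentary mice without the Arntl-high libraries, which left 1 WT_Sed heart, Mpc2 was at -0.69 and Mpc1 at -0.45. With Arntl as a covariate 4 of the 19 fell, with Mpc2 at -0.66 (adjusted p = 0.00101) and Mpc1 at -0.48 (0.00619). Under TPM scaling 5 of the 19 rose and 4 fell and 1 of 3 channels fell between trained groups, and with training in labelled knockouts 4 rose, 1 fell and 1 channel fell.

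Enzymes that work with the named carriers were counted too. For these short lists, 6.96% of all genes tested rose and 6.32% fell between sedentary groups. Between trained groups 12.5% rose and 15.4% fell. With training in labelled knockouts 12.1% rose and 16.3% fell. Of 6 genes of the carnitine shuttle, 0 rose and 4 fell in both genotype comparisons, with Crat at -0.88 (adjusted p = 9.52e-07), Cpt2 at -0.84 (1.88e-06) and Cpt1b at -0.73 (0.000806) in trained mice. Of 12 genes of heme synthesis and mitochondrial iron, which use the solutes of Slc25a38 and Slc25a28, 1 fell between sedentary and 7 between trained groups. Alas1, the first enzyme of heme synthesis, was at -0.81 (1.76e-05) in trained mice. Of 7 genes of coenzyme A synthesis, 1 fell between sedentary and 2 between trained groups, with the pantothenate kinase Pank1 at -0.65 (0.0112) in sedentary mice. Of 7 tested folate and one-carbon enzymes, 2 rose between sedentary groups and 1 between trained groups, where Mthfd2 was at 1.26 (8.12e-05). With training in labelled knockouts the counts higher and lower were 1 and 3 for the carnitine shuttle, 0 and 8 for heme and iron, 0 and 2 for coenzyme A and 1 and 1 for folate; in wild types they were 0 and 1, 0 and 2, 0 and 0, and 0 and 1 in the same order. Between sedentary groups without the Arntl-high libraries, which left 1 WT_Sed heart, Pank1 was at -0.41. With Arntl as a covariate 2 carnitine shuttle genes fell there, and 0 genes of heme and iron, coenzyme A and folate changed. Under TPM scaling the counts higher and lower between trained groups were 1 and 3 for the carnitine shuttle, 0 and 2 for heme and iron, 2 and 2 for coenzyme A and 2 and 0 for folate, and with training in labelled knockouts 1 and 2, 1 and 1, 1 and 0, and 1 and 0 in the same order.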

How the data were processed

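Poly-A RNA of 20 hearts was sequenced, 5 per group, and the authors' table of FPKM per gene was used as deposited. The submitters' processing notes name DESeq2 1.20.0, featureCounts 1.5.0-p3, HISAT2 2.0.5 and the mm10 build, without saying what each did. Symbols and exon lengths came from GENCODE M21 on GRCm38 (25826 and 25839 genes matched). FPKM times length gave whole reads within 0.01 in every library for 24951 genes (96.52%), including 34 of the 37 carriers, and the implied library sizes showed that the authors had scaled the FPKM between libraries, so no further scaling was done. Depth was 14.16 to 30.43 M recovered reads.

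A model of 4 group means was fitted to log2(FPKM + 0.5) by limma 3.58.1 (R 4.3.3, eBayes with trend, 16 residual degrees of freedom) in 13723 genes averaging at least 0.5 FPKM, leaving out 12128. Tests were two-sided, with Benjamini-Hochberg adjustment over all genes tested. Scripts used Python 3.11.15, pandas 2.3.3 and numpy 2.4.6, and the fit was tested on simulated data. Not every gene of these lists is reported here. Carriers and lists were chosen with earlier results of these data known. Values of each heart are given for carriers called in a pairwise comparison, up to 14 by adjusted p, and for those called in the interaction; the remaining carriers are given by role, and up to 4 genes per companion list by p. The other settings tried were TPM scaling, a pseudocount of 0.1 or 1, a minimum mean of 2 FPKM or no minimum, the compared groups alone, a block for the replicate number, and leaving out each heart. Fits without Myl7-high or Arntl-high libraries, with log2 Arntl as a covariate, and by voom on recovered reads were chosen after seeing the data.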

Additional observations from a re-analysis of the deposited data

Results flagged for a closer look

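Within groups of 5, the highest or lowest heart stood apart, by Dixon's criterion at 95%, in 9 of the 120 carrier and group pairs looked at, and chance flags about 1 in 20, or 6. KO_Ex replicate 2 was the high heart in 4 of these: Slc25a1 (16.8 FPKM, next 5.36), Slc25a10 (5.26, next 4.47), Slc25a35 (3.70, next 1.80) and Slc25a51 (20.0, next 13.6). That library also had the highest summed fat-cell markers, 300.1 FPKM, and a Myl7 of 2055 FPKM, whose part was not tested. KO_Sed replicate 1, which had an Arntl level of 2.50 FPKM against at most 0.15 FPKM in the other KO_Sed hearts, was high for Slc25a36 (5.65 FPKM, next 3.13) and Slc25a46 (17.0, next 12.7). The others were Slc25a10 in WT_Sed replicate 5 (5.36 FPKM, next 4.70), Slc25a14 in KO_Ex replicate 1 (1.28, next 1.04) and Slc25a37 in WT_Sed replicate 4, which was low (4.79, next 5.14).

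The training change differed between genotypes in a limma test of the interaction for 6 carriers, with log2 differences of -1.33 for Slc25a33, -1.01 for Slc25a47, -0.67 for Slc25a29, -0.48 for Slc25a10, -0.44 for Slc25a28 and -0.36 for Slc25a39. TPM scaling and Arntl as a covariate each left 1 of the 6 called, Slc25a47, and leaving out the Arntl-high libraries left 0. For Slc25a29, Slc25a10, Slc25a28 and Slc25a39 the call also ended when any 1 of 11 to 15 single hearts was left out.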

How the results depend on the processing

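No called carrier changed sign under any alternative fitted. All 40 calls held with pseudocounts of 0.1 and 1 and a mean of at least 2 FPKM. With no filter 29 of 40 held: 0 carriers rose between trained groups and 0 with wild-type training, and 2 were lower in the interaction. With the compared groups alone 28 of 34 held, with 0 higher between sedentary groups, 0 higher between trained groups, and 0 higher and 0 lower with wild-type training. Under voom on recovered reads 34 of 37 held, with 2 lower in the interaction. Under TPM scaling 23 of 40 held, with 3 lower between sedentary groups, 4 higher between trained groups, 6 higher and 4 lower with training in labelled knockouts, and 1 lower in the interaction. Without the Myl7-high libraries 36 held, with 0 higher and 0 lower for wild-type training and 5 higher and 14 lower for training in labelled knockouts. Without the Arntl-high libraries 21 held, with 0 higher and 0 lower between sedentary groups, 0 higher and 0 lower for wild-type training, 2 higher with training in labelled knockouts and 0 lower in the interaction. With Arntl as a covariate 28 held, with 0 higher and 2 lower between sedentary groups, 0 and 0 for wild-type training and 1 lower in the interaction. Leaving out each heart in turn kept 679 of 800 calls, and 25 of 40 were ended by no single heart. The counts higher and lower ranged from 0 to 2 and 4 to 7 between sedentary groups, 0 to 1 and 10 to 14 between trained groups, 0 to 2 and 0 to 5 for wild-type training, 1 to 4 and 8 to 13 for labelled knockout training, and 0 to 1 and 2 to 7 for the interaction. The main fit did not use the replicate number. Of 30 same-numbered pairs 12 correlated above 0.1, and own numbers correlated best in 18 of 60. Each of those 60 choices was among the 5 hearts of another group, and pairs of unlike number above 0.1 were not counted. Replicate 1 pairs correlated at 0.251 to 0.364 and replicate 5 pairs at 0.079 to 0.484, while pairs of replicates 2, 3 and 4 had both signs. What the numbers share was not tested. As a block the replicate number kept 39 of 40 calls, ending that of Slc25a10 in the interaction (adjusted p = 0.0538). It gave 9 lower between sedentary groups, and 2 higher and 3 lower for wild-type training. The causes of these moves were not tested. The 6 carriers under 0.5 FPKM were left out by that minimum; depth limits the low carriers generally, with 17 to 52 reads for the untested Slc25a53 and 26 to 96 for the tested Slc25a14.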

Other observations

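The patterns given here were picked with the values in view. The highest 4 levels of Slc25a36 and the highest 3 of Slc25a46 among the 20 hearts were in Arntl-high libraries. Slc25a36 had 5.65, 2.78, 3.13, 3.10 and 2.95 FPKM in KO_Sed hearts and 6.27, 5.46, 7.83, 3.73 and 3.42 FPKM in WT_Sed hearts, where the Arntl-high libraries are KO_Sed replicate 1 and WT_Sed replicates 1, 2, 3 and 4. For Slc25a46 the values were 17.0, 12.7, 11.8, 11.1 and 12.6 FPKM in KO_Sed and 19.5, 14.2, 20.3, 14.6 and 12.5 FPKM in WT_Sed hearts. The Arntl-high KO_Sed heart was the highest of its group for both genes; whether Arntl accounts for this was not tested.

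Slc25a29 and Slc25a47, both called lower in KO_Ex against WT_Ex hearts and both with a negative interaction, lie head to head on chromosome 12. The Slc25a29 promoter window spans 108835827 to 108836126 and so contains the first noncoding Slc25a47 start at 108836046. In sedentary mice Slc25a29 fell in KO_Sed hearts while Slc25a47 was not called.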
